A study of Mus musculus with 18 samples.

Results

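Macrophages grown from the bone marrow of Klf3 knockout mice were taken out of the medium that had supported their growth, and their RNA was compared before and 8 h after. The growth medium held 20% medium conditioned by L929 cells, a fibroblast line that secretes macrophage colony-stimulating factor (M-CSF). The comparison rests on 6 of the 18 arrays of the series: the 3 titled Klf3 KO at 0 h, and the 3 titled Klf3 KO at 8 h with vehicle, phosphate-buffered saline (PBS). RNA was hybridised to an Affymetrix array with several probe sets for many genes, and each of 17097 genes was represented by its single-gene probe set with the highest mean over all arrays.

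The cells came from male FVB/NJ mice aged 10 to 14 weeks, and the marrow was cultured for 7 to 10 days. For every group the conditioned medium was removed, the cells were washed with PBS and regular medium with serum was added. The 0 h groups were then harvested, and the 8 h groups received PBS as vehicle or lipopolysaccharide (LPS) at 100 ng/mL and were harvested after 8 h. The other groups were wild type (WT) at 0 h and with vehicle, and both genotypes with LPS, with 3 arrays each. The sources used here do not give the knockout allele or say whether replicates came from separate mice, so p-values measure the spread between these samples, which may be technical. Between 0 h and vehicle, the 8 h without conditioned medium, the same time in fresh medium after the wash, the added PBS and the plate row of the array changed together and cannot be told apart.

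M-CSF is the main survival and growth factor of macrophages. It binds the receptor CSF1R, a tyrosine kinase, which signals through the kinases ERK and AKT. ERK signalling induces D-type cyclins and MYC, which carry cells into DNA synthesis, and it also induces its own brakes, the DUSP phosphatases and the Sprouty and SPRED proteins. AKT keeps FOXO transcription factors out of the nucleus, and growth factor signalling supports sterol synthesis and suppresses lysosomal gene expression.

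Values below are normalized intensities, linear values after quantile normalization of all 18 arrays, in the order of replicates 1, 2 and 3. Differences are log2 of vehicle over 0 h (n = 3 against 3) from limma with their standard error (SE). The SE rests on the spread within all groups of the 18 arrays, WT and LPS included, and not on the 6 KO arrays alone. The p-values are adjusted by the Benjamini-Hochberg method over all genes. A gene is said to have risen or fallen where that p was under 0.05. The nonspecific level of an array is the 95th percentile of 23 control probe sets with no mouse target, and it lay between 13.9 and 18.7 on the 6 arrays. Of the 17097 genes, 54.8% to 58.1% exceeded it on these arrays.

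Klf3, the Krüppel-like zinc finger gene knocked out, was read by 6 probe sets. The probe set that separates the genotypes most read 7.65, 17.4 and 16.8 in KO cells at 0 h and 14.5, 14.8 and 5.53 with vehicle, against 129 to 279 on the 6 WT arrays of these conditions. On this probe set KO was 16.9-fold lower at 0 h and 18.6-fold lower with vehicle (limma, adjusted p = 0.000397 and 0.000489 over all probe sets). The probe set that represents Klf3 was 2.27-fold and 3.785-fold lower (adjusted p = 0.249 and 0.044 in the same test). Another was 3.63-fold and 4.64-fold lower (adjusted p = 0.00509 and 0.000672). The others read higher in KO and did not pass, by 2.85-, 1.61- and 1.59-fold at 0 h and 2.47-, 1.03- and 1.185-fold with vehicle. The size of the loss thus depended on the probe set. None of the 6 probe sets changed with withdrawal in KO cells, and the part of the gene each one reads was not examined.

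The vehicle array of replicate 3 stood apart. The SD of its gene values around the vehicle mean was 0.326 on the log2 scale, against 0.21 to 0.264 on the other KO arrays compared here. It was the highest of the 3 vehicle arrays, and so the closest to 0 h, for 528 of the 990 genes that fell (53.3%). It was the lowest for 561 of the 1155 that rose (48.6%). Its part in each result is given beside that result. The log2 ratio of the 5′ over the 3′ probe set of Gapdh, a sign of RNA integrity, was 0.0925 ± 0.077 (SD, n = 3) at 0 h and -0.196 ± 0.088 with vehicle. WT cells moved alike, from 0.139 to -0.172, and the part of this shift in the results was not tested.

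Withdrawal was followed by changes in 2145 genes (12.5%). Of 17097 genes tested, 1155 rose (6.76%) and 990 fell (5.79%), and at least 2-fold changes were made by 205 of the risen and 350 of the fallen genes. The total was 1252 without 0 h array 1 and 1335 without vehicle array 2, and 1432 to 2146 without 1 of the other KO arrays. The 0 h and vehicle arrays did not overlap for 33.7% of genes, which is the background for each statement below that groups did not overlap. The 6.76% that rose and the 5.79% that fell are likewise the background for each count of list members in KO cells below. They include many genes without signal. In a fit of the 9691 genes above the nonspecific level on at least 3 of the 6 arrays, 1545 rose and 1250 fell, which are larger shares. For lists made up mostly of genes with signal, the background over all genes is therefore too low. The balance of directions depended on the scaling. With the deposited values as they were, 199 genes rose and 1559 fell. With equal array medians the numbers were 337 and 2048, and with equal hybridisation controls 113 and 662. These scalings moved the median gene by -0.256, -0.216 and -0.258 on the log2 scale, against -0.0052 after quantile normalization. Rises are therefore relative to the bulk of genes. Of the called genes chosen by the naming rule, 89 of 100 falls and 31 of 83 rises were also called under all 3 other scalings. Among the rises described below, Bcl2l2, Bnip3l, Btg1, Cbl, Csf3r, Mmp8, Nr4a2, Oas2, Oas3 and Sp1 were called under none of them, and Actn1, Ccng2, Cd274, Csf1r, Fabp4, Gbp3, Itgav, Klf11, Me1, Nfkbia and Npc1 under 1. Cebpa, Clec7a, Csf2rb, Hk2, Hp and Mertk were called under 2, as were the falls of Ccnb2, Herc6, Ifitm3, Maf and Pcna.

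The inhibitor of DNA binding gene Id3, a target of BMP and TGF-β signalling, rose most. It read 30.9, 25.1 and 11.2 at 0 h and 2195, 2207 and 1838 with vehicle. The difference was 6.66 ± 0.31 on the log2 scale (limma, adjusted p = 2.1e-09), with no overlap between the groups, although only 2 of the 3 arrays at 0 h lay above the nonspecific level. Slc7a2, which imports arginine and lysine, rose from 17, 28.8 and 21.9 to 632, 412 and 797 (log2 4.75 ± 0.52). Itgal, the α chain of the integrin LFA-1, rose from 131, 108 and 114 to 1776, 1745 and 1582 (log2 3.86 ± 0.17). Its 3 vehicle arrays agreed closely and lay far above every array at 0 h. Acod1, which makes itaconate, rose from 17.6, 28.3 and 52.6 to 526, 384 and 343 (log2 3.79 ± 0.43), and Cav1, a coat protein of caveolae, from 23.9, 40 and 30.3 to 381, 244 and 345 (log2 3.37 ± 0.29). In both genes the lowest vehicle array was several-fold above the highest array at 0 h.

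The other leading rises were Ppp1r12b, Arg2, Skil, Prdm1, Enc1, Tmeff1 and Tgm2, with log2 differences from 2.71 to 3.21. Ppp1r12b, a targeting subunit of myosin phosphatase, and Arg2, the mitochondrial arginase, were not well above background on any array at 0 h. Against the nonspecific level they rose at least 6.82-fold and at least 1.97-fold. Prdm1, which encodes the repressor BLIMP1, went from 15.1, 39.4 and 22.3 to 206, 200 and 129. All 12 leading rises were called under each of the 3 other scalings and without any single array. In a test over all probe sets, 1 of 4 probe sets of Ppp1r12b, 2 of 4 of Slc7a2 and 1 of 2 of Tmeff1 rose. Every probe set of the other leading rises rose, and no probe set of the leading rises fell.

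The chemokine Ccl7, a ligand of CCR2, fell most. It read 587, 612 and 1072 at 0 h and 4.42, 7.99 and 25.5 with vehicle (log2 -6.24 ± 0.63, limma adjusted p = 1.42e-05). Only replicate 3 was above the nonspecific level with vehicle. Ccnd1, which encodes cyclin D1, fell from 2783, 1481 and 2086 to 27.8, 23.2 and 288 (log2 -5.17 ± 0.65). Its replicate 3 with vehicle was about an order of magnitude above the other vehicle arrays and still below every array at 0 h. Without that array the log2 difference was -6.33. Stat4, a transducer of IL-12 signals, fell from 237, 116 and 166 to 8.09, 9.47 and 13.8. It was not well above background on any vehicle array, and the fall was at least 11.2-fold.

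Ccl2, the main monocyte attractant, fell from 1797, 1607 and 2082 to 82.4, 79.3 and 154 (log2 -4.18 ± 0.36). Ednrb, an endothelin receptor, fell from 255, 562 and 319 to 23.5, 42.9 and 13.3 (log2 -3.91 ± 0.63), and Dok2, an adaptor that restrains tyrosine kinase signals, from 584, 390 and 506 to 37.4, 23.1 and 59.2 (log2 -3.71 ± 0.41). No vehicle array of these genes reached the lowest array at 0 h. The chemokine receptor Ccr1 fell from 1182, 1230 and 1102 to 137, 94.5 and 55.1 (log2 -3.71 ± 0.39). The remaining leading falls, Etv5, Ccnd2, Clec10a, Myc and Ccne2, are described with their groups below. All 12 leading falls were called under each other scaling and without any single array. In the test over all probe sets, 5 of 6 probe sets of Ccnd2 and every probe set of the other leading falls fell.

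**Figure D1:**
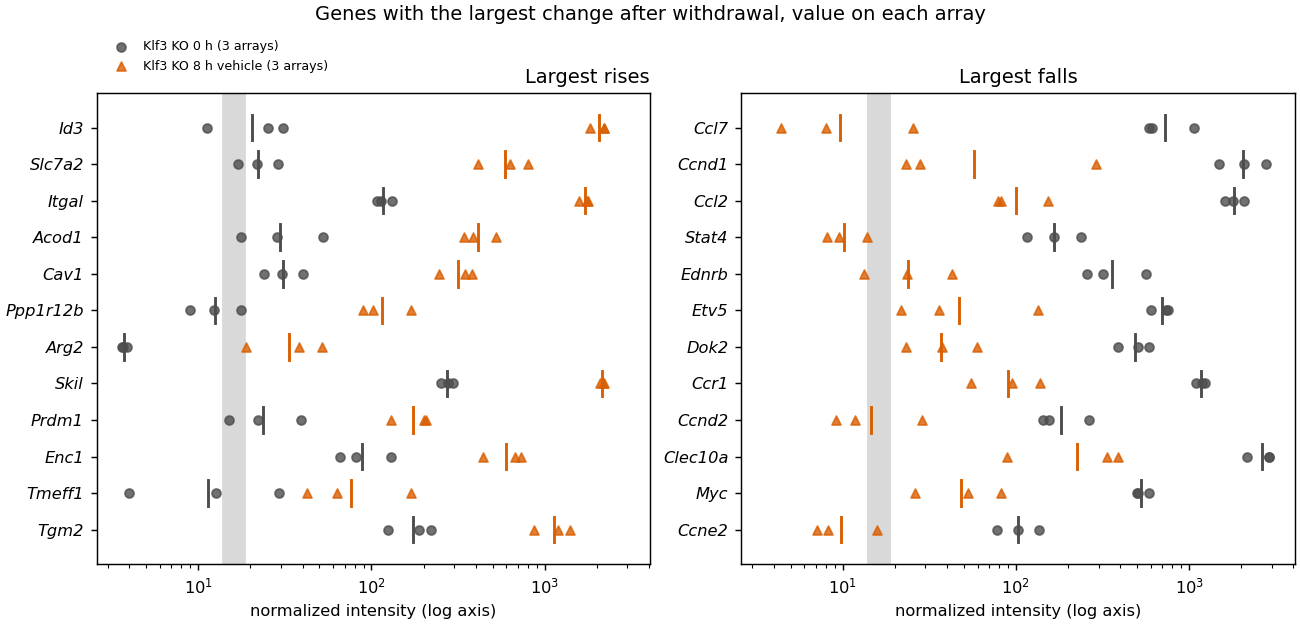
Normalized intensity (log axis) of the 12 largest rises and 12 largest falls on each of the 3 Klf3 KO arrays at 0 h (grey circles) and with vehicle (orange triangles), with short lines at the mean of log2 values and a grey band over the nonspecific levels of the 6 arrays. The groups do not overlap for any of these genes, Id3 moved from 11.2 to 30.9 up to 1838 to 2207, and the vehicle arrays of Ccnd1 spread from 23.2 to 288.

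The gene for the M-CSF receptor rose relative to the bulk of genes. Csf1r read 2199, 2325 and 2515 at 0 h and 4579, 4288 and 3581 with vehicle, a 1.76-fold rise (log2 0.82 ± 0.12, limma adjusted p = 0.00032). Replicate 3 was the lowest vehicle array, and the groups did not overlap. Of 19 measured genes of M-CSF and related growth factors and receptors, 5 rose and 0 fell, with a median of 0.09 against -0.0052 for all genes. The other risen members were Csf2rb2, Csf2rb, Csf3r and Cbl. Csf2rb, the β chain shared by the receptors for GM-CSF, IL-3 and IL-5, went from 552, 664 and 732 to 1991, 1691 and 1596 (log2 1.44 ± 0.14). Its close relative Csf2rb2, which serves IL-3, went from 174, 227 and 248 to 1236, 1050 and 1076 (log2 2.38 ± 0.15). The genes are close copies in sequence, and the probe sets may read both.

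Csf3r, the G-CSF receptor, rose by 1.29 ± 0.35 but read 269, 279 and 87.2 with vehicle, so replicate 3 overlapped the 0 h values of 57.2, 92.8 and 84.4. Its call ended without 0 h array 1, or vehicle array 1 or 2. Cbl, the ligase that marks CSF1R for degradation, rose by 0.56 ± 0.13. Csf2rb2 was called under all 3 other scalings, Csf2rb under 2, Csf1r under 1, and Csf3r and Cbl under none. The ligand genes did not pass: Csf1 itself had a log2 difference of -0.12 ± 0.24 and Il34 of -0.25 ± 0.18, and Il34 was near or below the nonspecific level throughout.

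Most genes that report ERK activity fell. Of 22 measured ERK output and feedback genes, 14 fell and 0 rose, with a median log2 difference of -1.17. Between 13 and 15 fell under the other scalings. Etv5, an ETS factor induced by ERK, read 756, 603 and 738 at 0 h and 21.7, 36 and 133 with vehicle (log2 -3.89 ± 0.43, limma adjusted p = 3.17e-05). Myc fell from 585, 503 and 505 to 26, 53.1 and 82 (log2 -3.45 ± 0.29). Neither gene's groups overlapped, and for both the vehicle array of replicate 3 was the highest. Phlda1, an ERK-induced pleckstrin homology gene, fell by 3.201 ± 0.48, and Plau, the urokinase protease, fell by 2.505 ± 0.35.

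Among the feedback inhibitors, Dusp6 and Spry2 fell and Spry4 did not pass. Dusp6, a phosphatase of ERK, read 2798, 2593 and 2549 at 0 h and 657, 618 and 1303 with vehicle (log2 -1.71 ± 0.29). Spry2, an inhibitor upstream of ERK, read 79, 88.2 and 87.5 and 21.7, 23.4 and 63 (log2 -1.42 ± 0.30). The groups did not overlap, but replicate 3 with vehicle lay near 0 h for Spry2. Spry4 was not well above background on any of the 6 arrays (log2 0.14 ± 0.23). By array, the median difference of the list from the 0 h mean was -1.53, -1.55 and -0.789 with vehicle. Without replicate 3 of the vehicle group 15 genes fell and the list median was -1.54. There were 11 falls without 0 h array 1 or vehicle array 1, and 12 without vehicle array 2.

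Most early response genes did not pass the test. Of 22 measured immediate early genes, 3 fell and 1 rose, against 5.79% and 6.76% of all genes, and 18 did not pass. The median was -0.03, and under the other scalings 4, 5 and 3 fell and 0 rose. Egr1, a zinc finger factor that serum and ERK induce, fell from 776, 875 and 933 to 136, 209 and 209 (log2 -2.25 ± 0.36). Ier2 fell from 811, 888 and 706 to 411, 437 and 394 (log2 -0.95 ± 0.19), and Egr2, which has a role in macrophage gene programmes, from 61.8, 138 and 111 to 30.3, 37 and 13.8 (log2 -1.97 ± 0.44). Fos, a part of AP-1, had a log2 difference of 0.58 ± 0.29 with an adjusted p of 0.233 and was higher on all 3 vehicle arrays. Jun had one of -0.25 ± 0.19 and did not pass. The single rise, of Nr4a2, lay below the nonspecific level on all 6 arrays and was not called without any 1 of the 6 KO arrays.

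**Figure D2:**
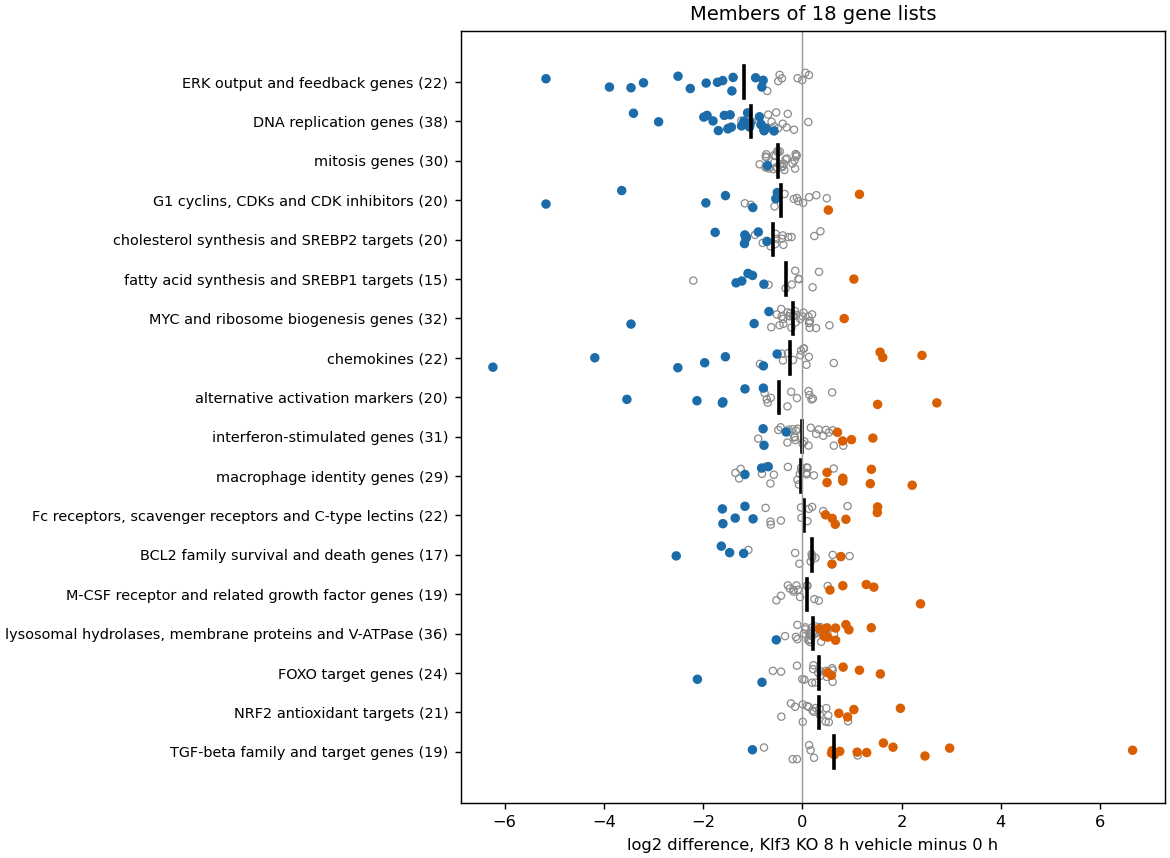
log2 difference (vehicle minus 0 h in Klf3 KO cells) of each measured member of 18 gene lists, with the number of members in brackets; filled points rose (orange) or fell (blue) at adjusted p under 0.05, open points did not pass, and black lines mark the median. The ERK list and the DNA replication list lie mostly left of 0, with medians of -1.17 and -1.03, and the TGF-β list mostly right of 0, with a median of 0.65.

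Rises outnumbered falls among genes of TGF-β and BMP signalling. Of 19 measured members, 11 rose and 1 fell, with a median of 0.65 against -0.0052 for all genes. The rises numbered 7, 8 and 5 under the deposited, equal-median and hybridisation-control scalings. The inhibitory SMADs, which SMAD signals induce and which then block the receptors, both rose. Smad6 read 39.1, 40.4 and 42 at 0 h and 262, 229 and 189 with vehicle (log2 2.47 ± 0.20, limma adjusted p = 2.05e-06), and Smad7 read 35.3, 36.6 and 36.6 and 99.5, 107 and 133 (log2 1.63 ± 0.18). Both groups were tight and did not overlap.

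Skil, which encodes the SMAD corepressor SnoN, read 278, 251 and 296 at 0 h and 2193, 2162 and 2095 with vehicle (log2 2.97 ± 0.10). It had the smallest adjusted p of all genes, 7.19e-11. The receptors moved apart: Tgfbr1 rose from 464, 644 and 641 to 1941, 2021 and 2190 (log2 1.83 ± 0.15), and Tgfbr2, its ligand-binding partner and the single fallen member, fell from 3347, 3625 and 3581 to 1539, 1487 and 2350 (log2 -1.004 ± 0.19). Tgfb1 itself read 323, 325 and 323 and 312, 296 and 294 and did not pass (adjusted p = 0.667). Id1, a relative of Id3, read 96.5, 64.3 and 88.3 and 107, 84.9 and 615. Replicate 3 alone was high, and the difference of 1.12 ± 0.51 did not pass.

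Of the cell cycle lists, DNA replication had the lowest median, and the number of falls depended on replicate 3. Of 20 G1 cyclins, cyclin-dependent kinases (CDKs) and CDK inhibitors, 7 fell and 2 rose, with a median of -0.43. All D cyclins fell. Ccnd2 went from 265, 144 and 155 to 9.11, 11.7 and 28.6 (log2 -3.64 ± 0.46), with only replicate 3 above the nonspecific level after withdrawal. Ccnd3 went from 818, 543 and 689 to 157, 205 and 379 (log2 -1.55 ± 0.31). Their partner Cdk6 went from 822, 666 and 695 to 166, 177 and 227 (log2 -1.94 ± 0.18). Its vehicle arrays agreed more closely than those of the cyclins. Cdkn2d, an inhibitor of CDK4 and CDK6, also fell (log2 -0.997 ± 0.28). The 2 rises were Ccng2, an atypical cyclin of resting cells (log2 1.15 ± 0.23), and Btg1, an antiproliferative gene (log2 0.52 ± 0.15). Cdkn1a, the CDK inhibitor p21, did not pass at -0.36 ± 0.12. Only 4 members fell without 0 h array 1, or vehicle array 1 or 2, and the calls of Cdkn2d and Btg1 ended without vehicle array 1, among others.

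DNA replication genes fell in 23 of 38 measured cases and rose in 0, with a median of -1.03. Ccne2, a cyclin that starts S phase, read 135, 77.9 and 103 at 0 h and 8.23, 7.1 and 15.7 with vehicle (log2 -3.402 ± 0.33, limma adjusted p = 8.08e-06), where only replicate 3 exceeded the nonspecific level. Cdc6, which loads the replicative helicase, read 99.3, 68.1 and 88.9 and 10.1, 10.8 and 13.4. No vehicle array was well above background, so the fall was at least 5.68-fold. Mcm6, a helicase subunit, read 1410, 920 and 1258 and 227, 229 and 507 (log2 -1.99 ± 0.36). Uhrf1, which maintains DNA methylation, fell by 1.8 ± 0.41, a call that ended without vehicle array 2, and Ung, a uracil repair enzyme, fell by 1.92 ± 0.32. Pcna, the sliding clamp, read 4672, 3844 and 4537 and 2569, 2625 and 3694, a smaller fall (log2 -0.57 ± 0.15) whose call ended without any 1 of 4 KO arrays.

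Replicate 3 and the number of arrays weighed on this list. Its median difference from 0 h was -1.37 and -1.22 on vehicle arrays 1 and 2 and -0.36 on array 3. Without array 3, 29 of the 38 genes fell and the median was -1.31. Leaving out vehicle array 1 or 2 left 12 falls each, and leaving out 0 h array 1 left 11. There were 16 without 0 h array 3 and 25 without 0 h array 2. No member rose in any of these fits.

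Few genes of mitosis passed the test with all arrays in the fit. Of 30 measured members, 1 fell and 0 rose, with a median of -0.5. The single member was Ccnb2, cyclin B2, at 1266, 1079 and 1582 and 645, 703 and 1102 (log2 -0.703 ± 0.20), whose groups overlapped through replicate 3. By array the median of the list was -0.873, -0.764 and 0.222 with vehicle. Without array 3, 14 members fell and the median was -0.823, and without vehicle array 1 or 2, or 0 h array 1 or 3, 0 fell. There were 10, 9 and 4 falls under the other scalings. Mki67, a marker of cycling cells, read 1659, 1392 and 1937 and 1139, 1232 and 2479. Cdk1, the mitotic kinase, read 945, 892 and 1165 and 517, 599 and 1109. In both genes replicates 1 and 2 lay below every array at 0 h, and replicate 3 was high among the 0 h values or above them. In a bulk sample fewer cycling cells and less RNA per cell cannot be told apart.

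**Figure D3:**
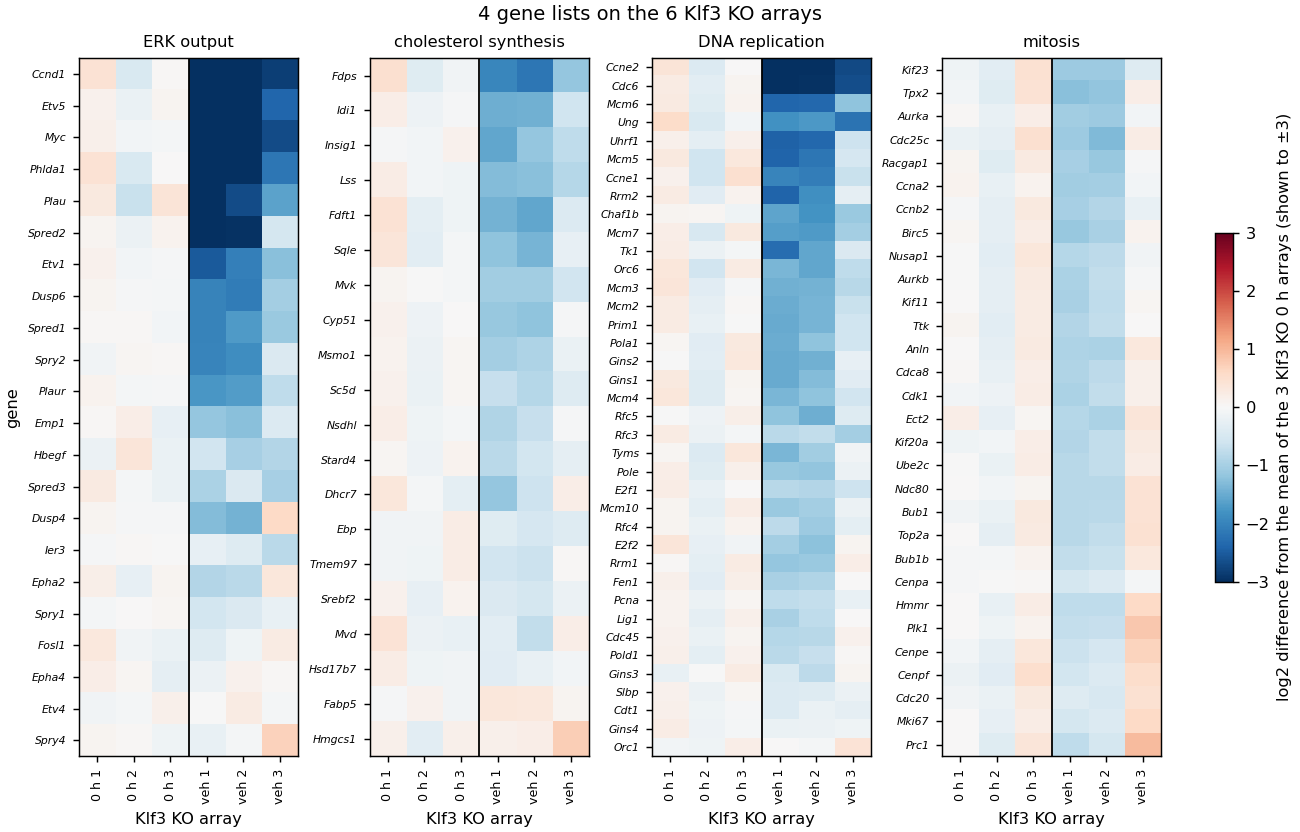
Colour gives the log2 difference of each gene (rows) from the mean of the 3 Klf3 KO arrays at 0 h, on the 6 Klf3 KO arrays (columns: 0 h replicates 1 to 3, vehicle replicates 1 to 3), with the scale limited to ±3. Vehicle arrays 1 and 2 are blue for most genes of the 4 lists, and array 3 is paler, with a list median of -0.789 for ERK output, -0.225 for cholesterol synthesis, -0.36 for DNA replication and 0.222 for mitosis.

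Promoters are shown for Cdc6 and Mcm6 because replication genes are classic targets of E2F, a factor that D cyclins and their kinases release. The 160 bases upstream of the start of transcription are given from RefSeq on build GRCm38.p6, with matches to the E2F words in capitals. The words searched were TTTCCCGC, TTTGGCGC, TTTCGCGC and TTTGCCGC on both strands, and overlapping matches run together. The positions are chr11:98907991-98908150, plus strand for Cdc6 and chr1:128359706-128359865, minus strand for Mcm6.
Cdc6: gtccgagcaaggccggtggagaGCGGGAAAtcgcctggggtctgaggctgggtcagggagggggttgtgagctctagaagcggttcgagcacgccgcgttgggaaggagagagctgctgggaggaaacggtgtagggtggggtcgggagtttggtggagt
Mcm6: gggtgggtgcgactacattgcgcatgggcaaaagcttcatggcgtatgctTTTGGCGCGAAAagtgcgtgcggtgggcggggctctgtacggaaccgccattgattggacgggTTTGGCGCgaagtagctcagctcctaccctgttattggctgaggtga
Over the 250 bases upstream, an E2F word was present in 422 of 13605 array genes with a listed promoter (3.1%). In the DNA replication list it was present in 9 of 32 (28.1%), and in 7 of the 18 that fell (38.9%). Over all 796 genes that fell and have a listed promoter, it was present in 38 (4.77%).

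Genes of cholesterol synthesis moved in 1 direction where they passed the test. Of 20 measured members, all above the nonspecific level on every KO array, 7 fell and 0 rose, with a median of -0.59. The number was 12, 13 and 8 under the other scalings. Fdps, which makes farnesyl diphosphate, read 1400, 782 and 937 at 0 h and 261, 225 and 453 with vehicle (log2 -1.76 ± 0.32, limma adjusted p = 0.0018). Idi1, an isomerase upstream of it, read 733, 574 and 622 and 232, 236 and 423 (log2 -1.17 ± 0.32). Lss, which closes the sterol ring, read 146, 117 and 114 and 50.6, 52.4 and 69.5 (log2 -1.14 ± 0.25). No vehicle array of these genes reached its 0 h values, and replicate 3 was the highest each time. Insig1, the sterol sensor that restrains SREBP2, fell by 1.16 ± 0.30, and Fdft1, squalene synthase, fell by 1.13 ± 0.28. Sqle, the next enzyme, had a difference of -0.95 ± 0.31 and narrowly missed the threshold (adjusted p = 0.0532). Hmgcs1 was the highest member by difference, at 0.37 ± 0.30, and did not pass.

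As in the cell cycle lists, array 3 lay nearer to 0 h: the list median by vehicle array was -0.968, -0.797 and -0.225. Without array 3, 10 members fell. There were 3 falls without 0 h array 1, or vehicle array 1 or 2, and 4 without 0 h array 3. The calls of Idi1, Insig1 and Fdft1 ended without each of the first 3 of these arrays, and those of Fdps and Lss did not.

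Promoters of 2 fallen sterol genes are shown because NF-Y, which binds the CCAAT box, is a known partner of SREBP2. The 160 bases before the start are again from RefSeq on GRCm38.p6, with CCAAT on either strand in capitals. They lie at chr13:8885446-8885605, plus strand for Idi1 and chr10:76531445-76531604, plus strand for Lss.
Idi1: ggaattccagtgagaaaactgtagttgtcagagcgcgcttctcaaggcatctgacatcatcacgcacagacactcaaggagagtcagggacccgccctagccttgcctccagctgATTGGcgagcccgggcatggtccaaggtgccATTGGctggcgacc
Lss: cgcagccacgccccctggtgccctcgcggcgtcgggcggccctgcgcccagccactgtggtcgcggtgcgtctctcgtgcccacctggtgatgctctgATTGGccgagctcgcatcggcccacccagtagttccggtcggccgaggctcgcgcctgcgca
CCAAT was present within 250 bases upstream in all 15 cholesterol genes with a listed promoter and in 5385 of 13605 array genes (39.6%). It was also present in 21 of 25 mitosis genes (84%) and in 335 of the 796 genes that fell (42.1%).

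Among fatty acid genes falls outnumbered rises. Of 15 measured members, 5 fell and 1 rose, with a median of -0.34. Leaving out 0 h array 1 left 3 falls and ended the calls of Fads2 and Fasn. Fads2, a desaturase, read 192, 85.7 and 132 at 0 h and 59.2, 43.2 and 53 with vehicle (log2 -1.34 ± 0.30), and Elovl6, an elongase, 95.8, 53.7 and 66.9 and 25, 23.3 and 46.7 (log2 -1.22 ± 0.27). Mid1ip1, an activator of fatty acid synthesis, fell by 1.09 ± 0.16 and Fasn, fatty acid synthase, fell by 1.004 ± 0.27. Me1, malic enzyme, was the single rise, from 86.5, 93.9 and 98.5 to 166, 154 and 272 (log2 1.04 ± 0.19), and it is also a target of NRF2. Scd1 read 152, 56.2 and 47.5 and 57.8, 20.5 and 3.53 and varied too much to pass (adjusted p = 0.156).

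Among 13 targets of the sterol sensor LXR, 3 rose and 2 fell. Apoc2, an activator of lipoprotein lipase, read 171, 323 and 145 at 0 h and 1711, 1323 and 403 with vehicle (log2 2.28 ± 0.55). Apoc1 was not well above background at 0 h and rose at least 1.62-fold. For both genes replicate 3 was the lowest vehicle array, and both calls ended without vehicle array 1 or 2, where 1 member of the list rose. Mertk, the receptor for engulfing dying cells, read 350, 447 and 467 and 1086, 1077 and 1129 (log2 1.39 ± 0.18), with tight and separate groups. Ch25h, which makes 25-hydroxycholesterol, fell from 282, 160 and 163 to 19.3, 10.4 and 85.5 (log2 -2.92 ± 0.57), and Lpl, lipoprotein lipase, from 6047, 5746 and 5692 to 2818, 2676 and 3904 (log2 -0.92 ± 0.13). Abcg1, a cholesterol exporter, read 864, 831 and 188 with vehicle, where replicate 3 stood far below the others, and did not pass.

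Chemokine genes fell more often than they rose. Of 22 measured members, 7 fell and 3 rose, with a median of -0.24. Leaving out any 1 of the 0 h arrays left 5 falls, and any 1 of the vehicle arrays 6 or 7. Under the other scalings 8, 8 and 7 fell. The list medians were -0.331, -0.291 and -0.333 there, against -0.256, -0.216 and -0.258 for all genes. The other falls included Ccl12, a mouse relative of Ccl2, from 127, 112 and 115 to 17.6, 21.3 and 23.4 (log2 -2.51 ± 0.43), and Ccl4 from 1119, 1044 and 1112 to 362, 508 and 281 (log2 -1.55 ± 0.22). Ccl3 read 1367, 1691 and 1462 and 725, 803 and 97.1 (log2 -1.97 ± 0.56). It was lowest on replicate 3, which thus did not lie nearest to 0 h. Its call ended without any 1 of the 0 h arrays. The rises were Cxcl14, from 81.3, 64.2 and 45 to 253, 235 and 595 (log2 2.41 ± 0.32), and Cxcl16, a membrane-bound chemokine, from 391, 405 and 400 to 1461, 1294 and 974 (log2 1.62 ± 0.17). Ccl5 was not well above background on any array at 0 h and rose at least 2.49-fold. All 3 rises were called under the other scalings.

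Inflammatory mediators changed in both directions. Of 18 measured genes of cytokines and inflammatory enzymes, 3 rose (Acod1, Il1b and Nfkbia) and 3 fell (Tnfsf9, Tnf and Il18), against 12.5% of all genes called in either direction. In the same list 9 genes were not above the nonspecific level on any KO array. Nfkbia, the inhibitor IκBα, read 615, 617 and 703 at 0 h and 1530, 1490 and 1119 with vehicle (log2 1.09 ± 0.13). Tnfsf9, the ligand of 4-1BB, read 219, 164 and 175 and 15.9, 9.3 and 53 (log2 -3.22 ± 0.55). Tnf read 127, 98 and 123 and 41.2, 48.2 and 82.3 (log2 -1.08 ± 0.32), and Il1b 21.8, 9.19 and 17.8 and 37.4, 31.1 and 47.4 (log2 1.32 ± 0.37). The groups of both did not overlap, but leaving out any of 4 KO arrays ended each call. Il6 was below the nonspecific level on every array.

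Interferon-stimulated genes had no common direction. Of 31 measured members, 4 rose (Ifit1, Gbp3, Oas2 and Oas3) and 3 fell (Herc6, Dhx58 and Ifitm3), with a median of 0.0034. Under the other scalings 1, 2 and 1 rose and 3, 3 and 1 fell. Ifit1, an antiviral RNA binder, read 41.1, 27.2 and 27.3 at 0 h and 144, 56.5 and 71.9 with vehicle (log2 1.42 ± 0.33). The vehicle arrays were uneven, replicate 1 being the highest, and the call ended without it. By vehicle array the list median was 0.48, -0.147 and -0.282, and without vehicle array 1, 1 member rose and 3 fell. Without 0 h array 1 or vehicle array 2, 0 fell.

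Markers of alternative activation fell more often than they rose. Of 20 measured members, 6 fell and 2 rose, with a median of -0.47. Clec10a, a galactose-type lectin, read 2906, 2878 and 2149 at 0 h and 387, 335 and 89.2 with vehicle (log2 -3.53 ± 0.58), and its relative Mgl2 99.7, 60.5 and 51 and 16.5, 15.4 and 14.7 (log2 -2.12 ± 0.38). Mrc1, the mannose receptor, read 4409, 4715 and 4899 and 1520, 2095 and 1123 (log2 -1.61 ± 0.17). No vehicle array of these reached 0 h levels. Cd163, the haemoglobin scavenger, fell by 1.6001 ± 0.40, and Msr1, scavenger receptor A, fell by 1.16 ± 0.32, where replicate 3 at 2172 overlapped 0 h. Leaving out 0 h array 1 or 3 left 3 falls, and either ended the calls of Cd163 and Msr1. The rises were Tgm2, a transglutaminase, from 125, 222 and 188 to 1406, 1200 and 864 (log2 2.71 ± 0.29), and Clec7a, the β-glucan receptor Dectin-1, from 299, 574 and 411 to 1376, 1229 and 980 (log2 1.52 ± 0.25). Arg1, Retnla and Chil3, the classic mouse markers, lay near or below the nonspecific level on all 6 arrays.

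Of 22 Fc receptors, scavenger receptors and C-type lectins, 6 rose and 5 fell, with a median of 0.04. Under the other scalings 2, 2 and 1 rose and 7, 7 and 5 fell, with medians of -0.28, -0.24 and -0.28. Clec4n, Dectin-2, read 150, 261 and 188 at 0 h and 501, 387 and 882 with vehicle (log2 1.51 ± 0.31), and Fcgr4, an activating Fc receptor, 159, 225 and 222 and 98, 76.6 and 63.6 (log2 -1.35 ± 0.31). Among 12 genes of inflammatory monocytes, Ccr2, the receptor for the chemokines Ccl2 and Ccl7, was the single fall. It read 467, 635 and 512 at 0 h and 166, 104 and 17.4 with vehicle (log2 -2.99 ± 0.62). Vcan, a matrix proteoglycan, and Hp, haptoglobin, rose by 1.87 ± 0.35 and 0.96 ± 0.23, and the call of Hp ended without 0 h array 2.

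The arrays carried the markers of macrophages throughout. Of 29 macrophage identity genes, 27 were above the nonspecific level on all 6 KO arrays. Their summed intensity ran from 51236 to 52995 at 0 h and from 53542 to 54193 with vehicle. Within the list 7 rose and 3 fell, and under the other scalings 1 to 4 rose and 5 or 6 fell. Without 0 h array 3, or vehicle array 1 or 2, 4 rose. Cx3cr1, the fractalkine receptor, read 282, 165 and 180 at 0 h and 594, 611 and 2320 with vehicle (log2 2.22 ± 0.44), with replicate 3 far above the others. Cebpa, a myeloid transcription factor, read 335, 421 and 335 and 976, 1014 and 824 (log2 1.37 ± 0.18). Aif1, the actin-binding protein IBA1, fell by 0.82 ± 0.18, and Maf, a factor of mature macrophages, fell by 0.69 ± 0.21, a call that ended without any of 9 arrays, WT arrays included. Adgre1, which encodes F4/80, and Itgam, which encodes CD11b, had differences of -0.29 ± 0.16 and -0.57 ± 0.23 and did not pass.

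Genes of adhesion and the actin skeleton moved both ways, with integrins among the rises. Of 33 adhesion, actin and podosome genes, 6 rose and 7 fell, with a median of -0.13. There were 3, 5 and 2 rises and 8, 9 and 4 falls under the other scalings. The falls numbered 3 without 0 h array 3 or vehicle array 1. Besides Itgal, Itgb5, the partner of αv, read 1165, 1206 and 1246 at 0 h and 3730, 3546 and 3347 with vehicle (log2 1.55 ± 0.12), and Itgav 614, 616 and 606 and 1174, 1115 and 1593 (log2 1.06 ± 0.18). Vcl, the adhesion adaptor vinculin, read 655, 536 and 624 and 143, 175 and 258 (log2 -1.696 ± 0.21). Tpm1, a tropomyosin, fell by 1.26 ± 0.17 and Rhoc, a small GTPase, fell by 1.57 ± 0.24. The groups of these 5 genes did not overlap. Actn1, an actin crosslinker, went the other way, with a rise of 1.06 ± 0.21.

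Survival genes of the BCL2 family changed in 6 of 17 measured cases. Bcl2, the founding survival factor, read 233, 229 and 196 at 0 h and 15.9, 37.6 and 88.7 with vehicle (log2 -2.54 ± 0.45, limma adjusted p = 0.00123). Bcl2l1, which encodes BCL-XL, read 429, 391 and 461 and 132, 142 and 354 (log2 -1.18 ± 0.27), with replicate 3 again near 0 h. The call of Bcl2l1 ended without vehicle array 1 or 2. The death-promoting members Bid and Bik fell as well (log2 -1.63 ± 0.21 and -1.46 ± 0.33). Bnip3l, a mitophagy receptor, rose by 0.78 ± 0.14 and Bcl2l2, a survival member, by 0.598 ± 0.14. Bcl2l11, which encodes the death factor BIM, read 682, 702 and 570 and 1181, 1226 and 672 and did not pass (adjusted p = 0.087). Of 19 p53 targets, 1 fell, the kinase Plk2, from 798, 849 and 688 to 236, 195 and 166 (log2 -1.98 ± 0.39), and 0 rose.

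Targets of FOXO factors rose in 5 of 24 measured cases and fell in 2, with a median of 0.34. Klhl24, an adaptor of a ubiquitin ligase, read 218, 319 and 230 at 0 h and 821, 817 and 628 with vehicle (log2 1.57 ± 0.25). Ccng2 read 266, 305 and 243 and 610, 624 and 568. Both groups were separate on every array. Klf2, a quiescence factor of the same family as Klf3, went the other way, from 2838, 1912 and 2118 to 557, 564 and 451 (log2 -2.11 ± 0.25), as did Txnip, a thioredoxin inhibitor, from 3243, 3139 and 2639 to 2010, 1796 and 1376 (log2 -0.81 ± 0.18). Of the 5 rises, 1 to 3 kept a call under each other scaling, where the median was 0.04 to 0.08. Leaving out 0 h array 3 left 2 rises, and without 0 h array 1, or vehicle array 1 or 2, 3 rose.

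In the Krüppel-like and SP family, 3 of 17 measured genes fell and 2 rose. Klf4, a regulator of monocyte differentiation, read 252, 192 and 200 at 0 h and 89.6, 69.4 and 71 with vehicle (log2 -1.48 ± 0.29), and Klf6 2215, 2045 and 2357 and 1265, 973 and 636 (log2 -1.26 ± 0.25). With Klf2 these 3 falls were seen under all scalings. Klf11, a TGF-β-inducible member, and Sp1 rose by 0.81 ± 0.14 and 0.41 ± 0.10, but Klf11 kept its call under 1 other scaling and Sp1 under none.

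Lysosomal genes were slightly higher after quantile normalization, and under the other scalings their median was below 0 but above that of all genes. Of 36 measured members, 10 rose and 1 fell, with a median of 0.21. The median was -0.12, -0.08 and -0.13 under the other scalings, where 1 or 2 rose. The median of all genes was -0.256, -0.216 and -0.258 there. Leaving out 0 h array 1 or vehicle array 1 left 4 rises, and leaving out vehicle array 2 left 5. Ctsk, cathepsin K, read 24.7, 29.6 and 28 at 0 h and 75.4, 70.4 and 69.4 with vehicle (log2 1.39 ± 0.28). It was called under every scaling. Npc1, a cholesterol exporter of lysosomes, read 302, 352 and 342 and 677, 683 and 556 (log2 0.94 ± 0.12), and kept its call under 1 of the other scalings.

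Targets of the antioxidant factor NRF2 rose in 4 of 21 measured cases and fell in 0, with a median of 0.35. Under the other scalings 1 or 2 rose and the median was 0.03 to 0.07. Gclm, a subunit of the first enzyme of glutathione synthesis, read 618, 599 and 434 at 0 h and 1814, 1828 and 2958 with vehicle (log2 1.98 ± 0.25) and was called under every scaling. Array 3 lay farthest from 0 h here: the list median was 0.147, 0.178 and 0.673 on the 3 vehicle arrays. Hmox1, haem oxygenase, read 1032, 1249 and 2409 with vehicle and did not pass.

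The balance of directions in metabolic and stress lists depended on the scaling. In glycolysis and hypoxia genes 4 of 32 rose and 4 fell, and under the other scalings 1, 1 and 0 rose and 9, 9 and 7 fell. Hk2 rose from 349, 313 and 307 to 795, 804 and 663 (log2 1.22 ± 0.13) while its relative Hk1 fell from 492, 455 and 422 to 204, 225 and 343 (log2 -0.86 ± 0.19). Both are hexokinases, the entry step of glycolysis. Ndrg1, a hypoxia-induced gene, fell from 1043, 957 and 977 to 330, 318 and 202 (log2 -1.84 ± 0.20). In the ATF4 amino acid response list 4 of 33 rose and 4 fell, and under the other scalings 0, 1 and 0 rose and 5, 6 and 4 fell. Psat1, of serine synthesis, fell from 226, 189 and 212 to 37.1, 42.2 and 55.1 (log2 -2.24 ± 0.47), and Atf4 from 1820, 1832 and 1992 to 1186, 1113 and 1262 (log2 -0.67 ± 0.13). In the unfolded protein response 2 of 24 rose and 4 fell, against 0, 1 and 0 rises and 7, 7 and 3 falls under the other scalings. The falls were led by Sdf2l1, an endoplasmic reticulum chaperone cofactor, at -1.06 ± 0.18. In MYC-dependent ribosome biogenesis 1 of 32 rose and 3 fell, including Myc itself, and in the respiratory chain and TCA cycle 0 of 36 rose and 3 fell. Without vehicle array 3 of KO, 8 glycolysis and 7 unfolded protein response genes fell. Without 0 h array 1, 1 gene of the MYC list and 2 of the ATF4 list fell, and without vehicle array 2, 0 respiratory genes. Under the other scalings up to 13 genes of the MYC list and up to 8 respiratory genes fell. Of 16 heat shock genes 1 rose and 1 fell, and of 19 clock genes 2 rose and 1 fell.

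Of 15 genes of MHC class II and co-stimulation, 1 rose and 3 fell, against 6.76% and 5.79% of all genes. Under the other scalings 0, 1 and 0 rose and 4, 4 and 3 fell. Cd40 read 59.6, 31.1 and 49.2 at 0 h and 11, 16 and 15.2 with vehicle (log2 -1.697 ± 0.37), and Cd80 70.5, 82.2 and 87.8 and 34.9, 38.3 and 28.3 (log2 -1.25 ± 0.20). Both act in signalling between macrophages and T cells. The checkpoint ligand Cd274, which encodes PD-L1, rose from 41, 69.8 and 84.2 to 189, 154 and 97 (log2 1.19 ± 0.26) and kept its call under 1 other scaling.

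Markers of other cells were low. No marker of mast cells, T and NK cells or progenitors was above the nonspecific level on all 6 KO arrays. In the B cell, erythroid and stromal lists 1 was each, and 0 genes changed in any of these 6 lists. The erythroid and platelet marker above it was Pf4, a platelet chemokine that macrophages also express. The summed level of the 8 progenitor markers ran from 72.8 to 83.9 at 0 h and from 84.5 to 261.8 with vehicle. The highest sum was that of vehicle array 3, through Cd34 at 39.6, 16.8 and 123 and Sox4 at 21.7, 16.8 and 75.3, and neither gene passed. The summed level of the 12 neutrophil markers ran from 320.3 to 466.4 at 0 h and from 574.8 to 833.5 with vehicle, and 2 of the 12 were above the level on all 6 arrays. Mmp8, S100a8 and Csf3r rose, while Elane, Mpo and Prtn3, the granule genes that define neutrophil precursors, were below the nonspecific level on all 6 arrays. The sum of 8 dendritic cell markers ran from 129.5 to 154.1 and from 86.8 to 100.02. Batf3 and Kmo fell, the defining markers Flt3, Zbtb46 and Xcr1 were below the level, and leaving out any 1 of 12 arrays ended the call of Batf3. Of 9 endothelial and adipocyte markers 1 rose, Fabp4, which macrophages also express, and its call ended without any 1 of the 6 KO arrays. The list's sum ran from 351.7 to 432 and from 661.1 to 701.3, and Cdh5, Pecam1 and Adipoq were below the level. The part of these cells in the results was not tested.

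The same medium change in WT cells, on arrays not shared with the KO comparison, gave 1225 rises (7.16%) and 1198 falls (7.01%). Both comparisons share 1 normalization and 1 variance per gene, so the overlap of their calls is not independent. Of the 1155 KO rises, 822 were called in WT, which is 71.2% of the KO and 67.1% of the WT rises. Of the 990 KO falls, 707 were called, or 71.4% of the KO and 59% of the WT falls. The sign in WT was the same for 98.4% of the KO rises and 97.9% of the falls, and 1 KO rise was called as a fall in WT. The log2 differences of the genotypes had r = 0.807 across 17097 genes, a description only, since genes share arrays and are no replicates. The median of the KO rises was 0.646 in KO and 0.598 in WT, and that of the falls -0.823 and -0.78.

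No gene passed the test of a genotype difference in response. In the limma test of the difference, 0 of 17097 genes were called (0%), 628 had an unadjusted p under 0.05 (3.67%) and the smallest adjusted p was 0.999. The count was 0 in every alternative fit. On simulated data the same test recovered 44% of genes with a difference of 1 on the log2 scale, 86% of those with 2 and 96% of those with 3. Genotype differences of the size of 1 were thus often missed there. The simulated noise was independent between arrays and genes, so a deviation of a whole array, as in vehicle array 3, was not modelled. The rates also depend on the number of genes changed, and may not hold for these arrays. Among the KO genes that rose or fell, 616 were not called in WT (333 rises and 283 falls), and this split is no test of a difference.

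The intervals of single genes show how wide the error is. Slc7a5, which imports large neutral amino acids, read 64.1, 47.1 and 50.3 in KO at 0 h and 24.5, 14.8 and 32.9 with vehicle, and 256, 191 and 106 and 23.5, 21.7 and 16.9 in WT. The KO minus WT difference in response was 1.86 (95% interval 0.89 to 2.83, unadjusted p = 0.00092, limma). All WT arrays at 0 h were higher than those of KO, and the vehicle arrays overlapped. For Ifit1, with 134, 65.1 and 116 and 112, 93.3 and 61.8 in WT, the difference was 1.64 (0.64 to 2.64). For Ccr2, with 44.5, 141 and 94.6 and 55.1, 34.8 and 39.4 in WT, it was -1.9997 (-3.87 to -0.13), and KO arrays at 0 h were above every WT array. For Ppp1r12b it was 1.47 (0.702 to 2.25). None of these passed after adjustment. For Id3 the interval was -0.698 to 1.17, for Ccnd1 -2.06 to 1.81 and for Ccl2 -0.998 to 1.19.

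List by list the genotypes can be set side by side, with no test between them. Of the DNA replication genes 31 of 38 fell in WT, with a median of -1.34, against 23 and -1.03 in KO. Of the mitosis genes 9 of 30 fell in WT (median -0.75). The ERK list had 14 falls in both genotypes, with a WT median of -1.13. The TGF-β list had 12 rises and 1 fall in WT, with a median of 0.65. The ATF4 list had 3 rises and 15 falls in WT (median -0.59) against 4 and 4 in KO (median -0.08). In the interferon list 0 rose and 7 fell in WT (median -0.56).

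**Figure D4:**
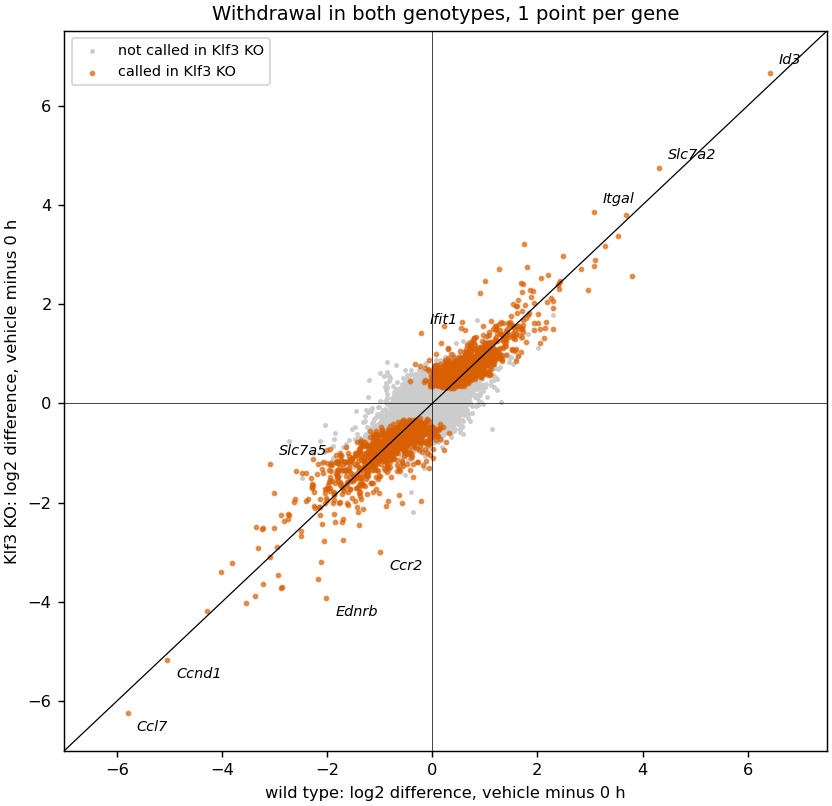
Each of 17097 genes is a point at its log2 difference (vehicle minus 0 h) in WT (horizontal) and Klf3 KO cells (vertical), in orange where it was called in KO; the diagonal marks equal responses. Most orange points lie along the diagonal from Ccl7 and Ccnd1 at the lower left to Id3 at the upper right, and the labelled genes Ccr2, Ednrb, Slc7a5 and Ifit1 lie off it, none of them past the adjusted test of the difference.

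The third condition places the withdrawal levels beside those after LPS, in KO cells that had lost the conditioned medium for the same 8 h. These arrays are set beside the vehicle arrays, which both comparisons share, so no relation between them was tested. Ccl2 read 3933, 2922 and 3567 after LPS and Ccl7 1682, 1115 and 1572, above every array at 0 h (1797, 1607 and 2082, and 587, 612 and 1072). Ccnd2 read 555, 342 and 519, above its 0 h values. Etv5, at 57, 52.9 and 54.1, lay in the range of the vehicle arrays, and Ccnd1, at 27.8, 22.6 and 23.5, in it or just below.

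Among the rises, Itgal read 4007, 3253 and 4234 after LPS, Slc7a2 4332, 4455 and 4825 and Acod1 7278, 7378 and 8323, all above the vehicle arrays. Skil read 1702, 1713 and 1932 and Id3 917, 660 and 744, below the vehicle arrays and above those at 0 h. Enc1, an actin-binding protein, read 65.7, 129 and 81.5 at 0 h, 729, 676 and 441 with vehicle and 41.4, 49.9 and 13.9 after LPS, so that it was high with vehicle alone. Clec10a, at 42.8, 19.1 and 11.4, lay below every vehicle array. Csf1r read 2146, 2002 and 2283 after LPS, overlapping its values of 2199, 2325 and 2515 at 0 h. The mitosis list, whose median fell by 0.5 with vehicle, had medians of -3.25, -2.75 and -3.09 relative to 0 h on the LPS arrays.

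**Figure D5:**
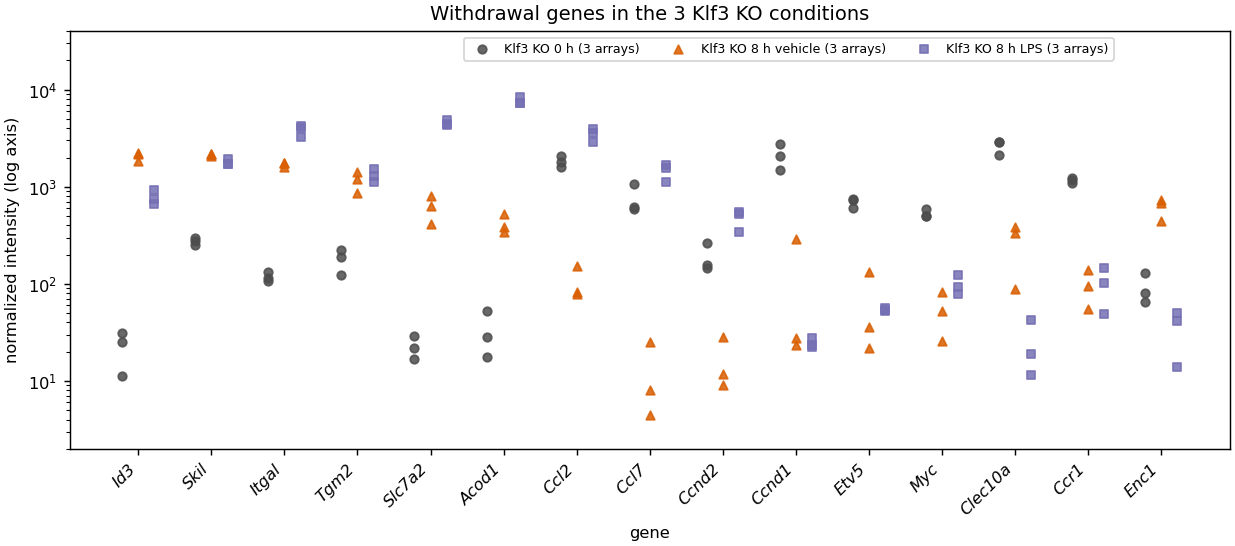
Normalized intensity (log axis) of 15 genes in Klf3 KO cells at 0 h (grey circles), after 8 h with vehicle (orange triangles) and after 8 h with LPS (purple squares), with 3 arrays each. Ccl2 and Ccl7 are low with vehicle alone, Enc1 is high with vehicle alone, Ccnd1 is low under both 8 h conditions, and Slc7a2 and Acod1 step up from 0 h to vehicle to LPS.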

How the data were processed

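RNA of 18 macrophage samples (6 groups of 3) was hybridised to 1 array each. The authors deposited linear intensity values, for which the submitters' processing notes name Partek. The sources used here name no version, background correction or scaling. The array quantiles differed, so log2 was taken and all 45141 probe sets were quantile-normalized. Control probe sets (104) were then left out. GEO's annotation gave 28898 probe sets 1 gene symbol, 551 several and 15588 none, and 7180 of the 17097 genes had more than 1 probe set. No pseudocount was added and no gene was filtered out. The number of arrays limits the precision.

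limma 3.58.1 (R 4.3.3) fitted 1 mean per group over all 18 arrays (lmFit, eBayes), with two-sided contrasts for vehicle minus 0 h in each genotype and their difference, and Benjamini-Hochberg adjustment over all genes. The fit was tested on simulated data with independent normal noise around 1 mean per gene. With 50 genes changed at each size it recovered 18% at a log2 of 0.5, 76% at 1, 96% at 2 and 100% at 3. The members and the 41 gene lists (838 of 931 entries matched the array) were chosen with earlier results of these data known, and the promoter words after seeing the lists. Named genes were the 12 largest rises and falls with non-overlapping groups and a brighter group above the nonspecific level, the first 3 and up to 5 called genes in each direction of every list, other members where 5 or fewer are counted, Klf3 and Csf1r. Genotype differences were described for 4 genes, and intervals for 3 leading genes, picked after their values were seen. "At least" folds set the brighter group's mean log2 value against the mean nonspecific level of the dimmer group's arrays. They were given only where no array of the dimmer group exceeded that level.

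Beside the 2 promoter words reported, CACGTG was present in 11 of 30 lysosomal genes (36.7%, against 8.75% of all) and GGCGCC in 5 of 13 TGF-β genes (38.5%, against 16.3%). Deviations of same-numbered 0 h and vehicle arrays had r = -0.046, 0.144 and 0.0982 in KO and 0.0117, 0.00668 and 0.041 in WT. Arrays of different numbers had r from -0.188 to 0.101 in KO and from -0.0611 to 0.0493 in WT. Same-numbered arrays of a genotype also shared a plate column. Such small values cannot decide whether the numbers pair samples, and the main fit took no pairs. Alternatives covered scaling, the arrays in the fit, blocks, low values, probe set choice, variance model, array weights and leaving out arrays. Probe sets of a gene did not always share its call. In the test over all probe sets 1 of 2 was called for Spry2, Egr2 and Ccng2, among others. For Elovl6 1 of 3 was called, and for Nr4a2 0 of 5.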

Additional observations from a re-analysis of the deposited data

How the results depend on the processing

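The 0 calls of the genotype difference held under every alternative, the replicate block included. The KO count was 2081 with the replicate block (1916 of the 2145 genes shared) and the WT count 2354, both within 1.5 times of the counts without it, while in KO the mitosis list went from 1 to 3 falls, the glycolysis list from 4 to 7, the unfolded protein response list from 2 rises to 1 and the interferon list from 4 rises to 6. Of lists without a call, the B cell list gained 1 fall and the progenitor list 1 rise. Scaling to equal hybridisation controls gave 775 KO and 710 WT calls, and array weights gave 3878 and 3892. With only the 2 compared groups in the fit, 2035 KO genes were called, of which 1646 were among the 2145. With the 12 arrays without LPS in the fit, 3117 KO genes were called, of which 2116 were among the 2145. Leaving out 1 KO array gave 1252 to 2146 KO calls, the lowest without 0 h array 1 and 1335 without vehicle array 2. Leaving out both KO arrays of a number gave 834 (number 1), 1024 (number 2) and 1545 (number 3). The WT count without 1 of its arrays was 1616 to 2070. Of the 2145 KO calls, 40 changed sign with deposited values, 15 with equal medians and 43 with hybridisation controls. With values raised to the nonspecific level 36 did, and 30 with the mean over all probe sets. For single named genes, 6515 alternative values stayed on the same side of the threshold, 626 lost the call and 109 gained it. Direction was not compared where neither fit called the gene. Where 1 of the fits called it, 3 values reversed. These were Syvn1 at -0.00902 with deposited values and -0.01142 with hybridisation controls, and Nr4a2 at -0.1852 with values raised to the nonspecific level. That level was lower with vehicle than at 0 h (14.88 against 16.96), which alone gives genes at the level in both groups this value. Genes whose signal is at the nonspecific level have no measured order there. The cause of the other changes was not tested.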
